A study of Homo sapiens with 12 samples.

Results

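Aminoacyl-tRNA synthetases are the enzymes that attach each amino acid to its own tRNAs, and the transcripts of their genes were followed here in retinoblastoma cells treated with THZ1, a covalent inhibitor of the transcription kinase CDK7. Members were the rows whose gene symbol is an amino acid letter followed by ARS, with or without 1 or 2 at the end, together with EPRS, FARSA and FARSB, provided the gene encodes a tRNA synthetase. This gave 37 of the 19974 Ensembl genes in the table, 20 for cytosolic and 17 for mitochondrial enzymes, and all 37 passed the filter on low counts. TARSL2, a further gene of a cytosolic threonyl enzyme, does not match the rule and was not called in either line (log2 fold changes 0.01 and 0.24). Symbols are those of the deposited table, so that QARS, RARS and TARS are the genes now called QARS1, RARS1 and TARS1.

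RNA-seq had been done on 2 retinoblastoma cell lines, WERI-Rb-1 (WERI below) and Y79, both labelled with a wild-type genotype. Each line was given 0.1% DMSO or 50 nM THZ1 for 12 h, with 3 libraries in each of the 4 groups. Both lines are established suspension cultures of human retinoblastoma, a childhood tumour of the retina, and the study's title describes the disease it models as MYCN-amplified. Nothing in the labels says whether the 3 libraries of a group came from separate cultures, so the p-values measure the spread between these libraries, which may be technical.

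Every codon is read correctly only because a synthetase has first activated the matching amino acid with ATP and joined it to the right tRNA. Animal cells make 1 set of these enzymes for the cytosol and another, also encoded in the nucleus, for the tRNAs of the mitochondrial genome; GARS and KARS serve both compartments, and there is no separate mitochondrial glutaminyl enzyme. Several cytosolic enzymes sit together on scaffold proteins in the multisynthetase complex. Many cytosolic synthetase genes are also known targets of ATF4, the transcription factor of the amino acid response, which is made when uncharged tRNA activates the kinase GCN2 (EIF2AK4).

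Promoters were matched for 30 of the 37 genes in RefSeq (GRCh38.p14), as windows from 250 bases before to 50 bases after the start of transcription. The letters TGATGNAA, the core of the element to which ATF4 binds together with C/EBP partners, were found on either strand in 7 of these 30 windows, or 23.3%, against 2.53% of 15843 protein-coding promoters of the same length. Those 7 windows are printed on the strand of the gene with the match in capitals and 10 bases on each side. They come from genes that went on to differ in their response. The search fixed every base of the match except that written N, so the likeness of the matches follows from it.
AARS: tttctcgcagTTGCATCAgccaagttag
CARS: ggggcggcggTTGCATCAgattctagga
IARS: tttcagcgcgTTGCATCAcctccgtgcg
MARS: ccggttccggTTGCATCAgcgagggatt
NARS: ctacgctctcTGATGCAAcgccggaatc
TARS: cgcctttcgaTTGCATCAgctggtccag
YARS2: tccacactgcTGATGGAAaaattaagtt
The windows lie at chr16:70289676-70289703 (minus strand) for AARS, chr11:3057408-3057435 (minus) for CARS, chr9:92293693-92293720 (minus) for IARS and chr12:57488054-57488081 (plus) for MARS. Those of NARS, TARS and YARS2 lie at chr18:57621805-57621832 (minus), chr5:33440957-33440984 (plus) and chr12:32756077-32756104 (minus). The 6 matches in cytosolic genes share 1 core, which reads TTGCATCA on one strand and TGATGCAA on the other, and the match in YARS2, the gene of the mitochondrial tyrosyl enzyme, differs from it at the base that the search left free. All 6 cytosolic genes with a match belong to the 13 synthetases reported as ATF4 targets, 10 of which had a promoter window. None of the other 6 cytosolic genes with a window had a match, which says only that these letters are not in those windows. The canonical E-box CACGTG, which MYCN binds, was in 4 of the 30 windows (13.3%, against 8.88% of all promoters): those of CARS2, EARS2, IARS and MARS2.

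Library totals lay between 29677575 and 37433574 counts. In both lines the 8 photoreceptor and retinoblastoma markers were the abundant marker list, with summed levels of 1558 to 2416 CPM (the usual library-scaled count, here without TMM scaling) in the WERI libraries and 714 to 1683 in the Y79 libraries. Their sum was lower in the treated libraries of each line, but 6 of the 8 were called higher and 2, OTX2 and CRX, lower in WERI, and 3 higher and 4 lower in Y79. Summed levels of Müller glia markers stayed between 0.101 and 2.86, of blood markers between 0.737 and 3.36 and of pigment epithelium markers between 4.08 and 35.6 CPM, with CD68, a blood marker, called higher after THZ1 by 1.94 in WERI and 1.81 in Y79 on the log2 scale. Stroma markers summed to 30.8 to 34.8 CPM in WERI DMSO and 47.9 to 50.8 CPM in WERI THZ1 libraries, and to 1.36 to 1.79 and 1.89 to 3.36 CPM in Y79. Of the 2 tested stroma markers COL1A1 was called higher, by 1.08 in WERI and 1.10 in Y79 on the log2 scale. The other was not called in WERI (-0.31) and was called higher in Y79 (5.25). CDK7 itself fell by 1.89 in WERI and by 1.83 in Y79 on the log2 scale, and MYCN by 0.39 and 0.79. The Y79 THZ1 library of replicate 2 stood apart from its group: ribosomal protein genes took 14.7% of its counts, against at most 10.9% in the other libraries of its group. Mitochondrially encoded mRNAs took 3.74% to 4.46% of counts in the DMSO libraries and 8.44% to 11.2% in the THZ1 libraries. The part of these shifts in the results below was not tested, and in bulk RNA fewer cells of a type and less RNA per cell cannot be told apart.

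Synthetase genes as a whole lost share of the library after THZ1, and so did the typical gene. With libraries scaled by their totals alone, the median log2 fold change of all tested genes was -0.56 in WERI and -0.65 in Y79. They took 0.453%, 0.456% and 0.454% of all counts in the WERI DMSO libraries and 0.322%, 0.324% and 0.320% after THZ1. In Y79 the shares were 0.467%, 0.470% and 0.463% in DMSO and 0.289%, 0.282% and 0.288% after THZ1. No treated library reached a control library in either line, and an exact two-sided permutation test of 3 libraries against 3 cannot give a p below 0.1. Single genes were therefore tested with edgeR's quasi-likelihood fit across all features, with trimmed-mean (TMM) scaling, which sets the typical gene near no change, and a call required a Benjamini-Hochberg adjusted p under 0.05.

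On that scale 12 synthetase genes rose, 19 fell and 6 were not called in WERI, where 27.7% of all tested genes were called higher and 37.2% lower. In Y79, 9 rose, 26 fell and 2 were not called, against 29.9% of all tested genes called higher and 38.5% lower. The share of synthetase genes called lower, 51.4% in WERI and 70.3% in Y79, was thus above the share among all genes, and the share called higher, 32.4% and 24.3%, was above it in WERI and below it in Y79. Among the 16 members that share no exon bases with another gene, 18.75% were called higher and 68.75% lower in WERI. In Y79 these shares were 18.75% and 81.25%. Without the genes that share exon bases, the share called higher was thus below that of all genes in both lines. The median log2 fold change of the 37 was -0.21 in WERI and -0.55 in Y79, beside -0.11 and -0.09 for all tested genes. The falls included larger changes than the rises: 6 genes fell and 2 rose by at least 2-fold in WERI, and 10 fell and 1 rose by that much in Y79.

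How many rose depends on the scale. When libraries were scaled by their totals alone, the median of all genes moved to -0.56 in WERI and -0.65 in Y79, and 5 synthetase genes were called higher and 26 lower in WERI, and 4 higher and 31 lower in Y79. Scaled to the 13 mitochondrially encoded mRNAs, all genes had medians of -2.01 and -1.80, and no synthetase gene was higher: 37 were called lower in WERI and 36 in Y79. Rises and falls named below are on the TMM scale, and so are relative to the typical gene of the same library. Separation of treated from control libraries, given below for single genes, was common. The CPM ranges of the groups did not overlap for 75.9% of all tested genes in WERI and 68.9% in Y79.

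**Figure D1:**
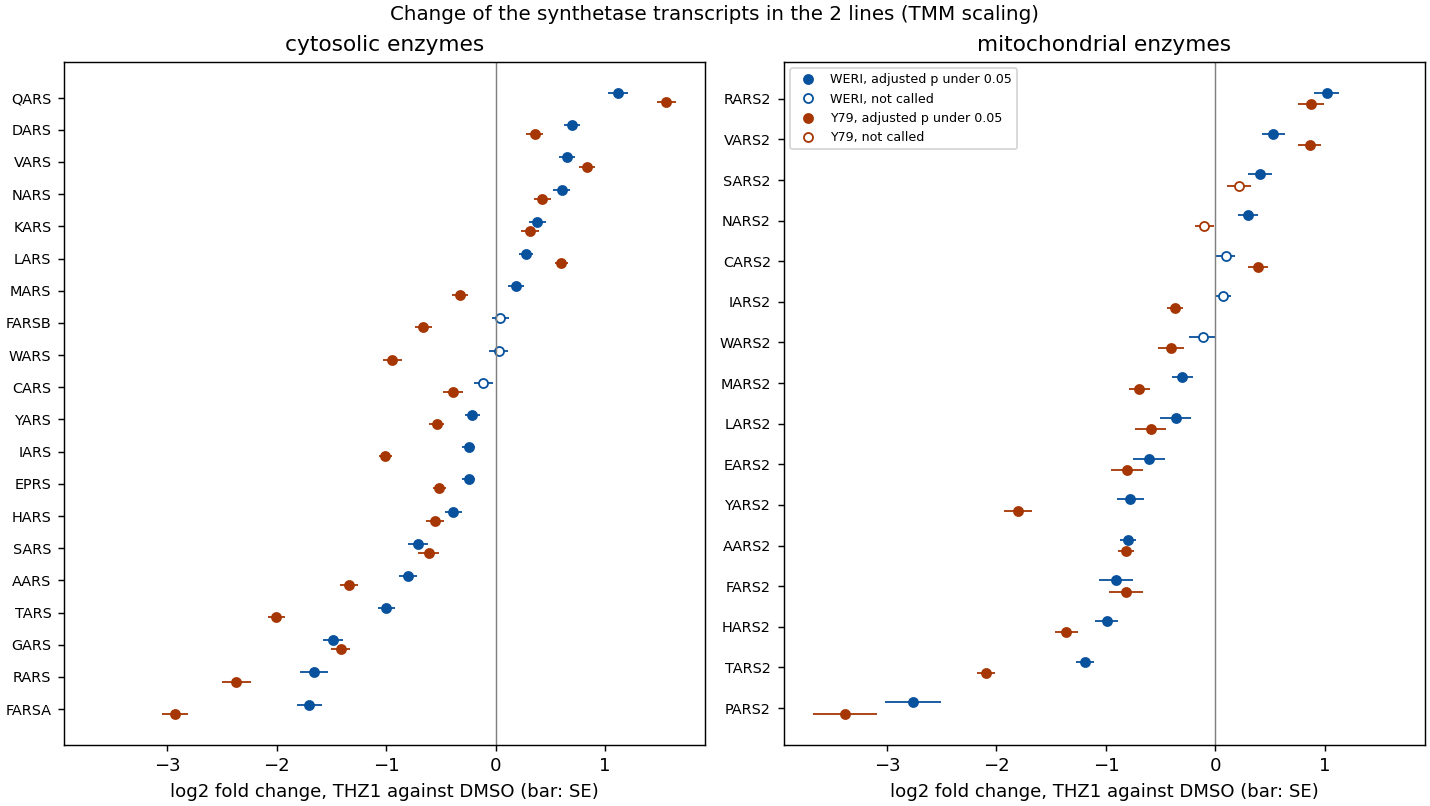
Log2 fold change after THZ1 (x axis, TMM scaling, bars are SE) of the synthetase transcripts reported here (y axis) in WERI and Y79, with cytosolic and mitochondrial enzymes in separate panels; filled points have an adjusted p under 0.05 and open points do not. The points run from -3.38 for PARS2 in Y79 to 1.56 for QARS in Y79, and most pairs of points lie on the same side of 0; no point to the right of 0 stays there when libraries are scaled to the mitochondrially encoded mRNAs.

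Most calls were shared between the 2 lines. Called falls were shared for 19 of the 37 genes, above the 30.9% of all tested genes that fell in both lines. Called rises were shared for 8 of the 37, near the 21.8% of all tested genes that rose in both lines. The 8 shared rises were DARS, KARS, LARS, NARS, QARS and VARS among the cytosolic and RARS2 and VARS2 among the mitochondrial enzymes. MARS was called higher in WERI and lower in Y79. CARS, WARS, FARSB, IARS2 and WARS2 were called, lower, in Y79 and not in WERI, CARS2 was called higher in Y79 and not in WERI, and NARS2 and SARS2 were called higher in WERI and not in Y79. Across the 37 genes the log2 fold changes of the lines, which share no library, had Pearson's r = 0.931 and Spearman's rho = 0.927, beside 0.68 and 0.779 over the 14865 tested genes; genes are not independent replicates, and these are descriptions.

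Among the rises, the glutaminyl enzyme stood first. QARS (ENSG00000172053, chr3:49095932-49105135, GRCh38) charges glutamine in the cytosol as a member of the multisynthetase complex. Its TMM-scaled level was 94.6, 98.4 and 93.4 CPM in WERI DMSO libraries and 221, 194 and 207 CPM after THZ1. In Y79 it was 177, 172 and 176 CPM in DMSO and 484, 593 and 469 CPM after THZ1. Every treated library was above every control library, and the library of Y79 replicate 2 that stood apart was the highest. The log2 fold change was 1.12 (SE 0.0873, adjusted p = 8.5e-08) in WERI and 1.56 (SE 0.0878, adjusted p = 2.7e-09) in Y79; scaled to the mitochondrially encoded mRNAs it was -0.78 and -0.15.

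RARS2 and VARS2 were the mitochondrial enzymes that rose in both lines. RARS2 (ENSG00000146282, chr6:87514378-87590003) charges arginine in mitochondria, and had 40.4, 35.7 and 36.9 CPM in WERI DMSO and 72.2, 76.0 and 80.4 CPM in WERI THZ1 libraries. In Y79 it had 36.8, 38.6 and 34.2 CPM in DMSO and 63.0, 82.5 and 55.8 CPM after THZ1. The groups did not overlap in either line, and the log2 fold changes were 1.02 (SE 0.118, adjusted p = 4.22e-06) and 0.88 (SE 0.118, adjusted p = 1.6e-05).

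VARS and VARS2, the cytosolic and mitochondrial valyl enzymes, moved together and lie on the same chromosome arm, at chr6:31777518-31795953 and chr6:30908242-30926459. VARS went from 175, 184 and 178 to 298, 271 and 274 CPM in WERI, and from 223, 221 and 242 to 390, 440 and 394 CPM in Y79. The log2 fold changes of VARS were 0.65 (SE 0.0716) and 0.84 (SE 0.0717), with adjusted p of 2.51e-06 and 1.58e-07. Treated and control libraries of VARS were separated in both lines. VARS2 went from 47.5, 48.2 and 52.5 to 76.5, 70.9 and 66.8 CPM in WERI and from 48.9, 46.2 and 51.6 to 73.8, 101 and 92.0 CPM in Y79. Its log2 fold changes were 0.53 (SE 0.102, adjusted p = 0.000453) and 0.86 (SE 0.103, adjusted p = 4.56e-06), and 22.0% of its exon bases are shared with GTF2H4 on the same strand, a gene not called in either line (-0.08 and -0.07 on the log2 scale).

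DARS, the cytosolic aspartyl enzyme of the complex (ENSG00000115866, chr2:135906677-135986100), completed the largest rises in WERI. Its libraries had 51.9, 50.1 and 51.0 CPM in DMSO and 77.8, 78.8 and 91.3 CPM after THZ1, and in Y79 95.9, 93.3 and 84.2 against 114, 121 and 115 CPM. The log2 fold changes were 0.70 (SE 0.0758, adjusted p = 2.23e-06) and 0.36 (SE 0.0751, adjusted p = 0.000843), the second of which was -0.21 with libraries scaled by their totals. The rise of DARS was separated from the controls in each line and smaller in Y79 than in WERI.

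The largest falls were in PARS2, FARSA and RARS. PARS2 (ENSG00000162396, chr1:54756898-54764514) charges proline in mitochondria. Its raw counts were 346, 350 and 445 in WERI DMSO and 40, 30 and 42 after THZ1, and 158, 158 and 247 in Y79 DMSO and 10, 13 and 8 after THZ1. On the scaled axis that is 8.12, 8.52 and 9.68 CPM against 1.40, 1.02 and 1.45 CPM, and 3.76, 3.96 and 5.95 CPM against 0.361, 0.630 and 0.333 CPM. The treated groups lay far below the controls in both lines, and the few counts left widen the errors: log2 fold changes of -2.76 (SE 0.256, adjusted p = 4.55e-07) and -3.38 (SE 0.294, adjusted p = 1.79e-07).

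FARSA (ENSG00000179115, chr19:12922479-12934037) and FARSB (ENSG00000116120, chr2:222570536-222656337) encode the alpha and beta subunits of the cytosolic phenylalanyl enzyme, which works only as an assembly of both. FARSA had 52.6, 60.8 and 59.9 CPM in WERI DMSO and 17.5, 19.3 and 16.5 CPM after THZ1. In Y79 it had 123, 112 and 122 CPM in DMSO and 14.1, 18.9 and 13.9 CPM after THZ1. The log2 fold changes of FARSA were -1.70 (SE 0.113, adjusted p = 1.88e-08) and -2.93 (SE 0.118, adjusted p = 1.61e-10). FARSB did not follow it in WERI, with 57.4, 54.9 and 56.0 CPM in DMSO and 58.1, 56.4 and 59.0 CPM after THZ1 (log2 fold change 0.04, SE 0.0745, adjusted p = 0.64). In Y79 FARSB went from 91.0, 95.4 and 87.5 to 54.6, 64.5 and 54.3 CPM (-0.66, SE 0.0748, adjusted p = 2.66e-06).

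The ratio of FARSA to FARSB counts within a library does not depend on how libraries are scaled. It was 0.915, 1.11 and 1.07 in WERI DMSO and 0.300, 0.342 and 0.279 in WERI THZ1 libraries. In Y79 it was 1.35, 1.17 and 1.39 in DMSO and 0.258, 0.293 and 0.256 after THZ1. Every treated library lay below every control library of its line. The ratio is of raw counts and the genes differ in exon length, so it shows a change of balance and not which subunit transcript was the more abundant. This ratio and the others below were chosen after the values were seen, so no test is given for them.

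RARS (ENSG00000113643, chr5:168486445-168519299), the cytosolic arginyl enzyme and another member of the multisynthetase complex, moved against its mitochondrial counterpart. It had 56.4, 54.8 and 53.1 CPM in WERI DMSO and 18.1, 17.2 and 16.6 CPM in WERI THZ1 libraries, and 89.1, 95.0 and 81.5 against 15.5, 21.9 and 14.1 CPM in Y79. The log2 fold changes were -1.66 (SE 0.128, adjusted p = 7.55e-08) and -2.37 (SE 0.131, adjusted p = 2.37e-09). Counts of RARS were 1.40, 1.53 and 1.44 times those of RARS2 in WERI DMSO and 0.250, 0.226 and 0.206 times after THZ1. In Y79 they were 2.42, 2.46 and 2.38 times in DMSO and 0.246, 0.266 and 0.253 times after THZ1. In all 6 control libraries RARS had the more counts of the pair, and in all 6 treated libraries RARS2 had.

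QARS and RARS, which share the complex, ended further apart still. Counts of QARS were 1.68, 1.80 and 1.76 times those of RARS in WERI DMSO and 12.2, 11.3 and 12.5 times after THZ1. In Y79 they were 1.99, 1.81 and 2.15 times in DMSO and 31.2, 27.0 and 33.2 times after THZ1. The controls of both lines lay near the same ratio, and the treated libraries of Y79 were above those of WERI.

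**Figure D2:**
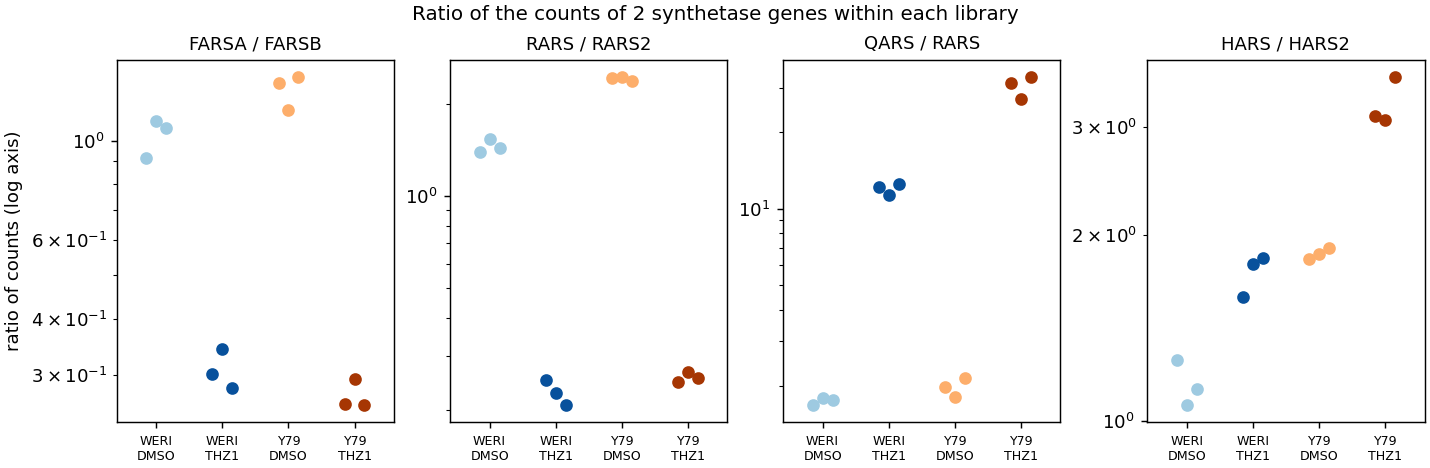
Ratio of the raw counts of 2 synthetase genes within each library (y axis, log scale) in the 4 groups (x axis, 3 libraries each, 1 point a library). FARSA to FARSB and RARS to RARS2 were lower, and QARS to RARS and HARS to HARS2 higher, in every THZ1 library than in every DMSO library of the same line.

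GARS, TARS2 and TARS also fell by at least 2-fold in both lines. GARS (ENSG00000106105, chr7:30594681-30634033), which makes the glycyl enzyme of both compartments, had 142, 145 and 136 CPM in WERI DMSO and 46.8, 51.1 and 53.2 CPM after THZ1, and 158, 173 and 167 against 61.1, 70.5 and 54.9 CPM in Y79. Its log2 fold changes in the lines were -1.49 (SE 0.0877, adjusted p = 6.78e-09) and -1.42 (SE 0.0875, adjusted p = 6.17e-09), with a difference of 0.07 (SE 0.122, adjusted p = 0.772). KARS (ENSG00000065427, chr16:75627474-75648643), the lysyl enzyme of both compartments, went the other way, from 165, 168 and 160 to 216, 207 and 218 CPM in WERI and from 197, 195 and 191 to 232, 275 and 219 CPM in Y79. The rise of KARS was 0.38 (SE 0.078, adjusted p = 0.000756) and 0.31 (SE 0.078, adjusted p = 0.00287) on the log2 scale. It is a rise only against the typical gene: scaled by library totals KARS changed by -0.07 in WERI and was called lower in Y79 at -0.26.

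TARS2 (ENSG00000143374, chr1:150487364-150507609), the mitochondrial threonyl enzyme, had 53.2, 55.4 and 56.7 CPM in WERI DMSO and 21.5, 24.6 and 26.3 CPM after THZ1. In Y79 it had 63.8, 66.0 and 65.5 CPM in DMSO and 15.5, 15.2 and 15 CPM after THZ1. The log2 fold changes were -1.19 (SE 0.0792, adjusted p = 1.93e-08) and -2.09 (SE 0.0825, adjusted p = 1.37e-10). TARS (ENSG00000113407, chr5:33440696-33469539), its cytosolic counterpart, fell alongside it, from 216, 210 and 213 to 101, 108 and 110 CPM in WERI and from 167, 167 and 163 to 36.2, 46.0 and 41.7 CPM in Y79. Both threonyl genes thus fell in both lines, and both fell further in Y79.

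**Figure D3:**
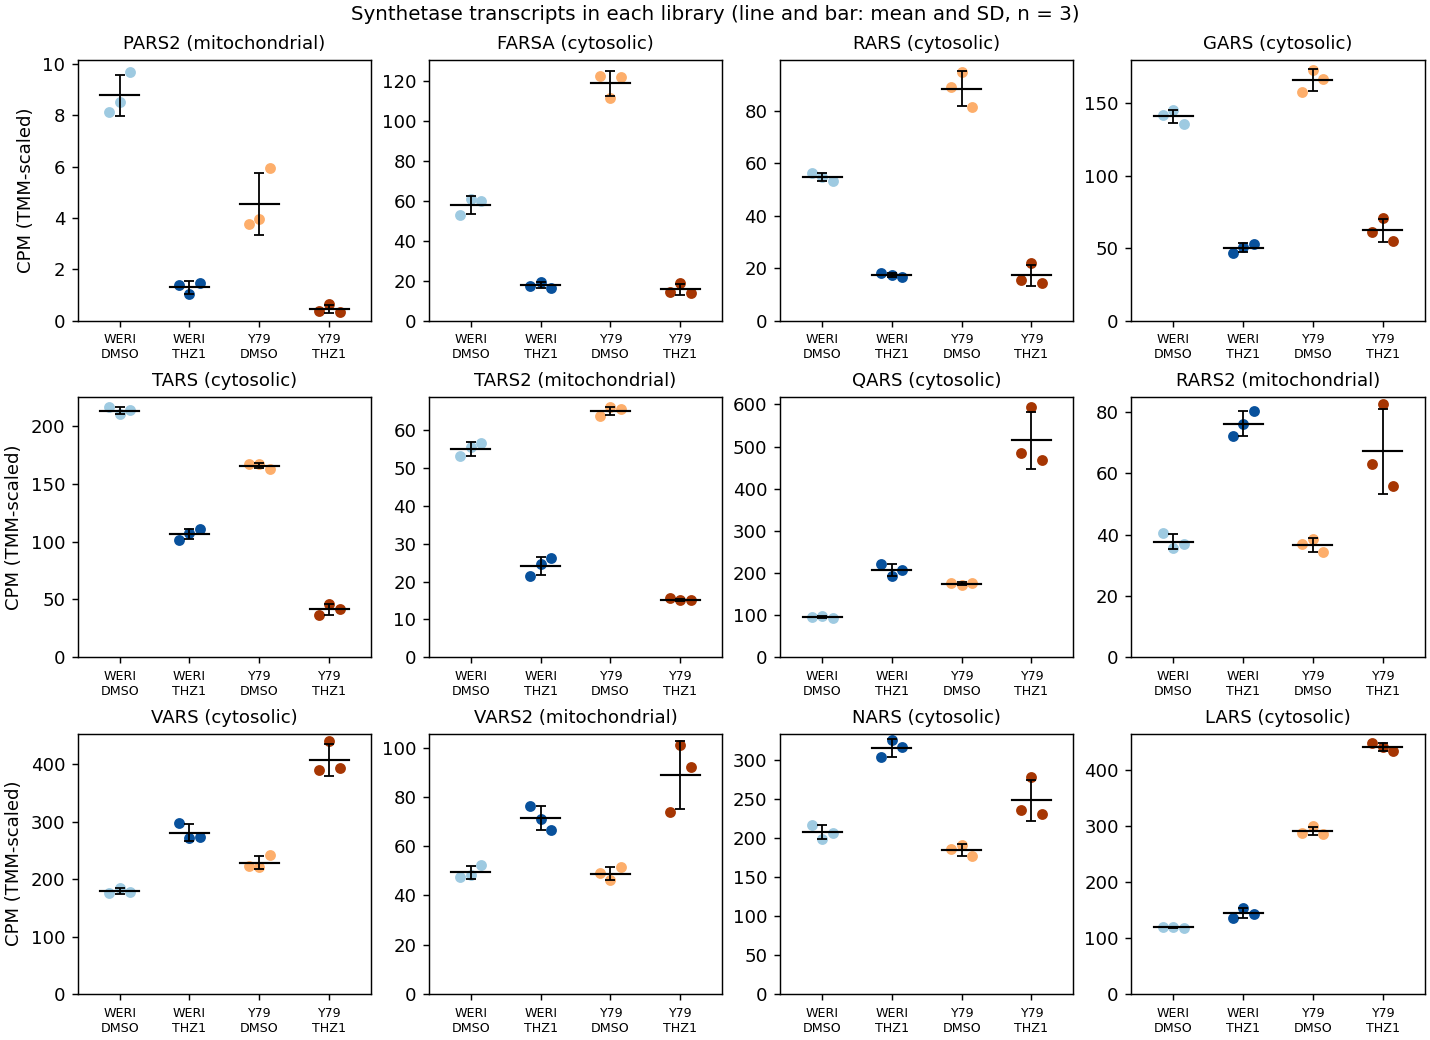
TMM-scaled level (y axis, CPM, from 0) of 12 synthetase transcripts in each library of the 4 groups (x axis); points are libraries, lines and bars are mean and SD (n = 3). PARS2, FARSA, RARS, GARS, TARS and TARS2 were lower and QARS, RARS2, VARS, VARS2, NARS and LARS higher in every THZ1 library than in every DMSO library of the line; under mitochondrially encoded mRNA scaling the last 6 had negative log2 fold changes. The panels for TARS, NARS and LARS were chosen after the values were seen. Treated and control libraries did not overlap for 75.9% of all tested genes in WERI and 68.9% in Y79.

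HARS and HARS2 start next to each other and point away from each other, and both fell. HARS (ENSG00000170445, chr5:140673904-140691862, minus strand) charges histidine in the cytosol and HARS2 (ENSG00000112855, chr5:140691426-140699318, plus strand) in mitochondria. Between their first transcribed bases in RefSeq lie 84 bases, of which 59.5% are G or C. That stretch holds the letters CCGGAAG, the binding core of ETS factors, at 2 places, once on each strand, shown with the match in capitals on the plus strand of GRCh38.p14.
first match, chr5:140691371-140691389: gaCTTCCGGctatcgagtc
second match, chr5:140691437-140691454: ccggctcctcCCGGAAGt
CCGGAAG was in 14 of the 30 synthetase promoter windows (46.7%) and in 14.2% of all protein-coding promoters. The windows of HARS and HARS2 both count among the 14, through the same 2 matches. The letters were looked for after this stretch had been read, and a match is a description, not a site.

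HARS had 38.0, 40.2 and 38.5 CPM in WERI DMSO and 29.8, 28.7 and 30.8 CPM after THZ1, and 68.8, 66.5 and 71.0 against 41.4, 49 and 50.2 CPM in Y79. HARS2 had 30.2, 38.0 and 34.3 against 18.8, 16.0 and 16.8 CPM in WERI, and 37.6, 35.7 and 37.2 against 13.3, 15.9 and 13.9 CPM in Y79. Log2 fold changes were -0.39 (SE 0.0805, adjusted p = 0.000836) and -0.55 (SE 0.0797, adjusted p = 2.9e-05) for HARS and -0.99 (SE 0.105, adjusted p = 1.74e-06) and -1.36 (SE 0.107, adjusted p = 6.89e-08) for HARS2. The ratio of HARS to HARS2 counts went from 1.26, 1.06 and 1.12 to 1.58, 1.80 and 1.84 in WERI and from 1.83, 1.86 and 1.91 to 3.12, 3.08 and 3.62 in Y79, so the pair fell unequally. GENCODE models of the 2 genes overlap by 437 exon bases, and the library kit does not keep strand, so reads there could have been counted for either gene.

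MARS, the cytosolic methionyl enzyme of the complex (ENSG00000166986, chr12:57475445-57517569), was the weakest call. It had 273, 287 and 277 CPM in WERI DMSO and 329, 299 and 324 CPM after THZ1 (0.18 on the log2 scale, SE 0.0714, adjusted p = 0.0385). In Y79 it had 256, 243 and 254 CPM in DMSO and 203, 215 and 183 CPM after THZ1 (-0.32, SE 0.0717, adjusted p = 0.00123). The libraries were separated in both lines, but the call in WERI was lost when any 1 WERI library was left out. MARS shares 13.3% of its exon bases with other genes, among them 355 bases of DDIT3 on the opposite strand, and DDIT3 fell by 3.24 in WERI and by 2.02 in Y79 on the log2 scale.

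The medians of cytosolic and mitochondrial enzymes lay close to each other in both lines. Of the 20 cytosolic genes 7 rose (35%) and 10 fell (50%) in WERI, and 6 rose (30%) and 14 fell (70%) in Y79. Of the 17 mitochondrial genes 5 rose (29.4%) and 9 fell (52.9%) in WERI, and 3 rose (17.6%) and 12 fell (70.6%) in Y79. Among all tested genes 27.7% rose and 37.2% fell in WERI, and 29.9% and 38.5% in Y79. The shares of falls were above these, while the cytosolic share of rises in Y79 and the mitochondrial share in WERI were near them. Median log2 fold changes were -0.16 for cytosolic and -0.30 for mitochondrial genes in WERI, and -0.55 and -0.59 in Y79. The difference of the medians, cytosolic minus mitochondrial, was 0.14 in WERI and 0.04 in Y79; computed for each treated library against the mean of its controls it was 0.16, 0.08 and 0.12 in WERI and -0.23, 0.32 and -0.05 in Y79. In Y79 the sign thus differed between libraries, and without the library of replicate 2 the difference was -0.17.

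Summed counts, which weigh abundant genes more than the medians do, separated the groups in Y79. Cytosolic genes had 4.38, 4.25 and 4.15 times the counts of mitochondrial genes in WERI DMSO and 4.44, 4.28 and 4.36 times after THZ1, ranges that overlap. In Y79 the ratio was 4.30, 4.22 and 4.23 in DMSO and 4.95, 5.23 and 4.87 after THZ1, with no overlap. The cytosolic sum holds abundant genes that rose in Y79, such as QARS and LARS, and abundant genes that fell, such as IARS and TARS, and which of them set the ratio was not tested.

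For 14 amino acids the members hold 1 cytosolic and 1 mitochondrial gene each, leaving out phenylalanine with its 2 subunits and glutamate and proline, which EPRS charges in the cytosol. In WERI both genes of the pair fell for 4 amino acids and rose for 3, and 4 pairs went in opposite directions. In Y79 both fell for 7 and rose for 1, and 4 pairs went in opposite directions. The rest in each line had a gene that was not called. Of all tested genes 27.7% rose and 37.2% fell in WERI, and 29.9% and 38.5% in Y79. The matching share for pairs of genes was not computed. Alanine, histidine, threonine and tyrosine were the pairs with both genes lower in both lines, and valine the pair with both higher. The arginine pair was split one way in both lines, with RARS lower and RARS2 higher. The leucine pair was split the other way, with LARS higher (0.28 and 0.60 on the log2 scale) and LARS2 lower (-0.36 and -0.59). The WERI call of LARS2 was lost with RLE size factors, with DESeq2 and without WERI THZ1 replicate 1 or 3 or any WERI DMSO library. That of YARS was lost with RLE size factors, with DESeq2 and without WERI DMSO replicate 1 or 2. With libraries scaled by their totals the rise of LARS was not called in either line.

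Synthetases fall into 2 structural classes with unrelated catalytic folds, and both held rises and falls. Of 18 class I genes 6 rose (33.3%) and 7 fell (38.9%) in WERI, shares near the 27.7% and 37.2% of all tested genes, and 6 rose (33.3%) and 12 fell (66.7%) in Y79, beside 29.9% and 38.5%. Of 18 class II genes 6 rose (33.3%) and 11 fell (61.1%) in WERI, and 3 rose (16.7%) and 13 fell (72.2%) in Y79. EPRS, a fusion of a class I glutamyl and a class II prolyl enzyme, fell by 0.25 and 0.51 on the log2 scale.

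Enzymes of the multisynthetase complex were divided. Of its 8 synthetase genes DARS, KARS, LARS, MARS and QARS rose and EPRS, IARS and RARS fell in WERI (median log2 fold change 0.23), and in Y79 MARS fell with those 3 while the other 4 rose (median -0.01). Of the 12 cytosolic genes outside the complex 2 rose and 7 fell in WERI (median -0.30). In Y79 2 of them rose and 10 fell (median -0.64). Inside the complex 62.5% rose and 37.5% fell in WERI, and 50% and 50% in Y79. Outside it 16.7% rose and 58.3% fell in WERI, and 16.7% and 83.3% in Y79. Among all tested genes 27.7% rose and 37.2% fell in WERI, and 29.9% and 38.5% in Y79. The 3 scaffold proteins were split too: AIMP1 rose by 0.75 and 0.79 on the log2 scale, while AIMP2 fell by 1.87 and 2.97 and EEF1E1, the smallest scaffold, by 0.75 and 1.36. The complex's parts, enzymes and scaffolds alike, were therefore called in both directions within each line, as all tested genes were. Scaled to the mitochondrially encoded mRNAs all 8 of these enzymes had negative log2 fold changes in both lines.

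The 13 genes reported as ATF4 targets were called in both directions. Of these 4 rose (LARS, MARS, NARS and VARS, 30.8%, near the 27.7% of all tested genes) and 7 fell (53.8%, against 37.2%) in WERI, with a median log2 fold change of -0.21. In Y79 3 rose (23.1%, against 29.9%) and 10 fell (76.9%, against 38.5%), with a median of -0.54. Of the rises in WERI that of MARS was lost, as above, when any WERI library was left out. The 7 other cytosolic genes had 3 rises (42.9%) and 3 falls (42.9%) in WERI and 3 rises (42.9%) and 4 falls (57.1%) in Y79. Of the 7 genes whose promoter windows are printed above, 2 rose (28.6%) and 4 fell (57.1%) in WERI. In Y79 1 of them, NARS, rose (14.3%) and 6 fell (85.7%). NARS and TARS, with the same core near the start of transcription, went in opposite directions: NARS from 216, 199 and 207 to 303, 325 and 317 CPM in WERI and TARS from 216, 210 and 213 to 101, 108 and 110 CPM. In Y79 the changes were 0.42 for NARS and -2.0 for TARS on the log2 scale.

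Other genes of the amino acid response were also called in both directions. Of 28 listed genes 27 were tested, and 8 rose (28.6%) and 13 fell (46.4%) in WERI, the first share near the 27.7% of all tested genes and the second above their 37.2%. In Y79 4 rose (14.3%, against 29.9%) and 15 fell (53.6%, against 38.5%). The largest changes were falls of DDIT3 (-3.24 and -2.02), a stress transcription factor, of TRIB3 (-2.47 and -2.48), a pseudokinase, and of STC2 (-2.07 and -1.16), a secreted glycoprotein, all as log2 fold changes. In Y79 SESN2, a leucine sensor, and CHAC1, which degrades glutathione, fell by 2.42 and 2.34. The fall of STC2 in Y79 rests on 2, 4 and 5 counts in the THZ1 libraries, and that of CHAC1 on 15, 14 and 12. Outside the rule for named genes, the largest rises were CEBPB (1.17) and SHMT2 (1.00) in WERI and SHMT2 (1.07) in Y79. CEBPB fell by 1.44 in Y79. ASNS (0.49 and 0.44), ATF5 (0.66 and 0.38) and MTHFD2 (0.35 and 0.23) also rose in both lines. ATF4 mRNA, named here outside the rule for named genes, was not called in either line (0.08 and 0.23). EIF2AK4, the kinase that senses uncharged tRNA and also named outside that rule, fell by 1.01 and 1.10.

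Of 19 genes of tRNA maturation and export 2 rose and 14 fell (73.7%) in WERI (median log2 fold change -0.74), and none rose and 15 fell (78.9%) in Y79 (median -0.96), where 37.2% and 38.5% of all tested genes fell. POP1 and RPP40, subunits of RNase P, which trims the 5′ end of tRNA, fell by 1.68 and 1.5 in WERI and by 2.06 and 2.74 in Y79. ELAC1, a tRNA nuclease, fell by 2.08 and 2.12. Few counts were left in the Y79 THZ1 libraries, 24, 24 and 9 for ELAC1 and 29, 27 and 44 for RPP40. Of 12 genes of tRNA charging, editing and amidation none rose and 4 fell (33.3%, near the 37.2% of all tested genes) in WERI, and 1 rose and 7 fell (58.3%, against 38.5%) in Y79. QRSL1 acts with GATB and GATC to complete mitochondrial glutaminyl-tRNA in place of the missing mitochondrial glutaminyl enzyme. QRSL1 fell by 1.79 and 1.95, opposite to the rise of cytosolic QARS. GATB, named here outside the rule for named genes, was not called in either line (0.01 and -0.28). GATC, also outside that rule, was not called in WERI (0.12) and fell in Y79 (-0.37).

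The change after THZ1 differed between the lines for 18 of the 37 genes, tested as the interaction of line and treatment, where it differed for 22% of all tested genes. It was lower in Y79 than in WERI for 16 and higher for 2, where 13.2% of all tested genes were called lower and 8.74% higher. Among cytosolic genes 11 were lower and 2 higher, and among mitochondrial genes 5 were lower and none higher. FARSA had the largest difference, -1.23 (SE 0.158, adjusted p = 0.000208), beside -1.0 (SE 0.109, adjusted p = 6.28e-05) for TARS. The count rests partly on scaling, since 8 were lower when libraries were scaled to the mitochondrially encoded mRNAs.

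YARS2 (ENSG00000139131, chr12:32727490-32755902), the mitochondrial tyrosyl enzyme, fell in both lines from different control levels. It had 12.4, 11.7 and 10.4 CPM in WERI DMSO and 6.72, 6.23 and 7.21 CPM after THZ1, and 23.4, 22.6 and 20.4 against 6.71, 5.38 and 6.90 CPM in Y79. Control levels were separated between the lines and treated levels overlapped, with a difference of the log2 fold changes of -1.03 (SE 0.179, adjusted p = 0.0015). QARS and LARS were the genes whose rise was larger in Y79, by 0.44 (SE 0.122, adjusted p = 0.0227) and 0.32 (SE 0.088, adjusted p = 0.0205), and both calls were lost when WERI DMSO replicate 2 or WERI THZ1 replicate 3 was left out, and 1 of them when WERI THZ1 replicate 1 or 2 or any Y79 DMSO library was.

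In DMSO the 2 lines differed in their synthetase transcripts before any inhibitor was given; this comparison shares its libraries with those above. Y79 was higher than WERI for 21 genes and lower for 6, where 32.3% of all tested genes were higher and 32.6% lower, and the median log2 difference was 0.24 beside 0.00 for all tested genes. Scaled by library totals the split was 15 higher and 9 lower, and scaled to the mitochondrially encoded mRNAs 14 higher and 10 lower. Cytosolic and mitochondrial genes were alike in this, with 12 of 20 and 9 of 17 higher and 3 lower in each. Of the 8 enzymes of the multisynthetase complex 7 were higher and none was lower; under either of these other scalings DARS, LARS, QARS and RARS stayed higher, EPRS, IARS and KARS were not called and MARS was called lower.

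LARS (ENSG00000133706, chr5:146113038-146182660), the cytosolic leucyl enzyme, had the largest difference between the lines, with 119, 120 and 118 CPM in WERI DMSO and 288, 300 and 286 CPM in Y79 DMSO (log2 difference 1.29, SE 0.0631, adjusted p = 6.56e-10). CARS (ENSG00000110619, chr11:3000922-3057613), the cytosolic cysteinyl enzyme, was the reverse, with 99.4, 97.4 and 95.4 against 45.5, 41.8 and 44.4 CPM (-1.15, SE 0.0882, adjusted p = 6.79e-08). FARSA was higher in Y79 by 1.04 (SE 0.107, adjusted p = 1.46e-06). SARS2, the mitochondrial seryl enzyme, had 11.7, 11.3 and 10.1 CPM in WERI and 22.7, 21.1 and 23.5 CPM in Y79 (1.03, SE 0.11, adjusted p = 2.05e-06). In each of these genes the libraries of the lines did not overlap, as was so for 77.9% of all tested genes. Of the exon bases of SARS2 57.0% are shared with other gene models, so its level is uncertain.

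Per kilobase of exon, cytosolic transcripts were the more abundant set in every group. The median of the 20 cytosolic genes was 26.6 CPM per kb in WERI DMSO and 19.1 after THZ1, and 35.8 in Y79 DMSO and 19.7 after THZ1. The median of the 17 mitochondrial genes was 5.75 and 5.42 in WERI and 9.87 and 4.21 in Y79. The gene at the top differed in each group: SARS at 54.8 in WERI DMSO, NARS at 77.1 in WERI THZ1, EPRS at 55.7 in Y79 DMSO and QARS at 109 CPM per kb in Y79 THZ1. IARS2, the mitochondrial isoleucyl enzyme, was the highest mitochondrial gene in all 4 groups, at 30.5 to 39.3 CPM per kb, and PARS2 was the lowest of all in both treated groups, at 0.549 and 0.188. Exon length here is the union of all annotated exons, so a gene with many rarely used exons is set too low.

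**Figure D4:**
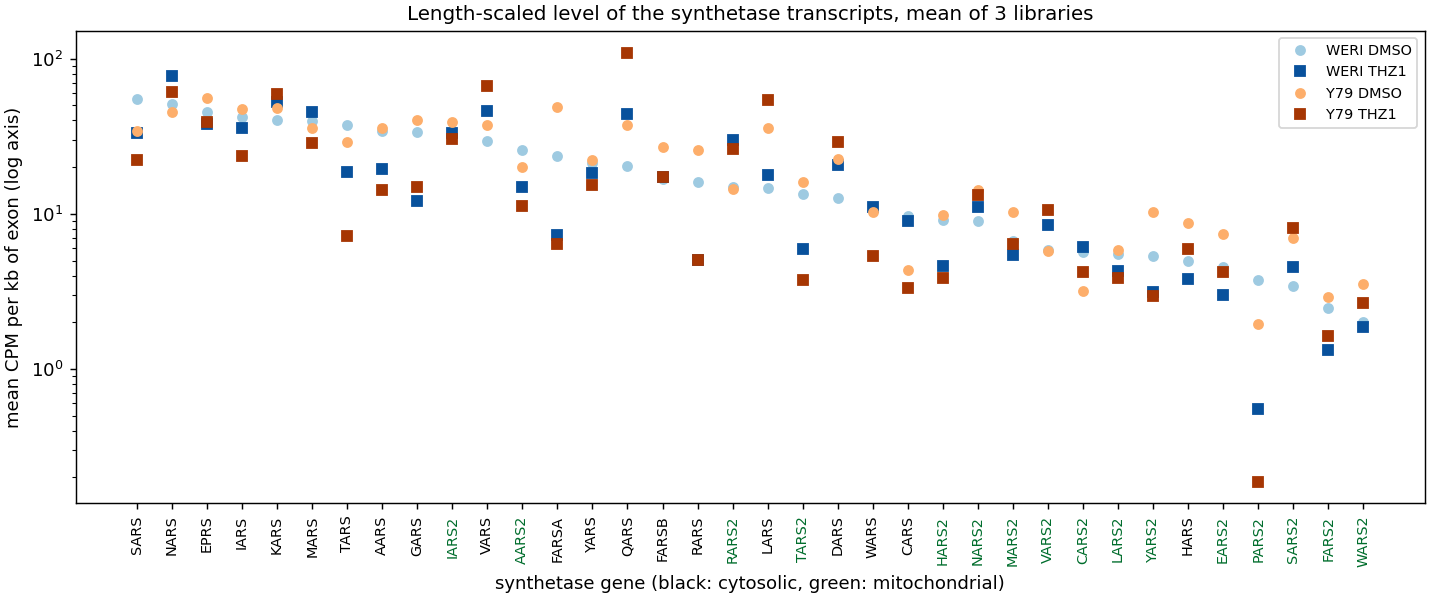
Mean TMM-scaled CPM per kb of annotated exon (y axis, log scale) of the synthetase transcripts reported here (x axis; black names are cytosolic, green names mitochondrial) in the 4 groups (n = 3 each). IARS2 lies among the cytosolic genes in all 4 groups, and PARS2 in the treated groups lies lowest, at 0.549 in WERI and 0.188 in Y79.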

How the data were processed

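The deposited table holds whole-number read counts per gene, made by the authors and used as deposited; Cufflinks and GRCh38 are named in the submitters' processing notes, without a version or role, and no source used here names the aligner or the counter. Per the labels' protocols, libraries were made from total RNA with a NEBNext Ultra kit, which does not keep strand. The table has 27505 features, of which 7531 are unannotated loci. Counts were fitted with edgeR 4.0.16 (R 4.3.3): filterByExpr left 18844 features (14865 Ensembl genes), TMM scaling, robust quasi-likelihood fit of all 12 libraries with 1 mean per group (8 residual degrees of freedom), Benjamini-Hochberg adjustment over all tested features, calls at an adjusted p under 0.05. SEs were derived from each log2 fold change and its F statistic. CPM are TMM-scaled. Levels per kb, positions and exon sharing use GENCODE 29; promoters are from RefSeq GRCh38.p14, and no protein sequence was used.

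The members, the gene lists and the motifs were chosen with earlier results of these data known, so counts over them are descriptions. Full values are given for the 4 largest rises and 4 largest falls of each line among called genes whose groups do not overlap, the 4 largest differences between the lines with and without THZ1, HARS, HARS2, MARS, GARS and KARS, and the 3 called genes with the largest change of each other list; FARSB, NARS and the count ratios were added after the values were seen. Values of 1 gene that the rule picks are not reported here; it stays in the counts over the members. The fit was tested on simulated counts for the WERI comparison (18844 features, 200 changed). There it recovered 75% of changes of 1 and 93% of changes of 2 on the log2 scale, and called 0.0483% of unchanged features. The simulation changed few features, as many up as down, whereas 64.8% of tested genes were called in WERI. It therefore does not test errors that come from the scaling. No 2 libraries held the same values, and replicates differed by more than counting noise. Alternatives were other scalings, no filter, DESeq2 1.42.0, each line alone, a replicate block, leaving out each library, and leaving out GARS and KARS or the genes that share exon bases.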

Additional observations from a re-analysis of the deposited data

Results flagged for a closer look

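For the synthetase genes below the change after THZ1 differed between the lines by the test of line and treatment together (edgeR quasi-likelihood, adjusted p under 0.05 over all tested features). All values are differences of log2 fold changes, Y79 minus WERI. Genes that fell in both lines and fell further in Y79 were FARSA (-1.23), YARS2 (-1.03), TARS (-1.0), TARS2 (-0.90), IARS (-0.76), RARS (-0.71), AARS (-0.54), YARS (-0.33) and EPRS (-0.27). WARS (-0.97), FARSB (-0.70) and IARS2 (-0.44) were called lower in Y79 and not called in WERI. MARS (-0.51) was called higher in WERI and lower in Y79. NARS2 (-0.40) was called higher in WERI and not in Y79, and DARS (-0.34) rose less in Y79. LARS (0.32) and QARS (0.44) rose more in Y79. The calls of YARS, EPRS, DARS and NARS2 were the least stable: YARS was lost when any single library other than Y79 THZ1 replicate 2 was left out, and EPRS, DARS and NARS2 when most of them were. LARS and QARS were each lost in several of those fits, and with the replicate block all of these 6 were lost. RLE size factors lost YARS, EPRS, DARS and NARS2. Without Y79 THZ1 replicate 2 no call was lost and CARS, NARS, HARS2, MARS2 and RARS2 were added.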

How the results depend on the processing

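Scaling by library totals gave 5 synthetase genes called higher in WERI, 4 in Y79 and 1 for the difference between the lines. Scaling to mitochondrially encoded mRNAs gave 0 higher in WERI and in Y79, 37 lower in WERI, 8 lower for the difference between the lines and 10 lower for Y79 against WERI in DMSO. Under it the log2 fold changes turned for QARS (-0.78), RARS2 (-0.88), DARS (-1.21), VARS (-1.25), MARS (-1.72) and KARS (-1.52) in WERI and for QARS (-0.15), RARS2 (-0.84), VARS2 (-0.84), VARS (-0.87) and KARS (-1.40) in Y79. Under library totals MARS (-0.27) and KARS (-0.070) turned in WERI, and in Y79 KARS (-0.26), DARS (-0.21) and CARS2 (-0.18) turned to called falls while LARS (0.04) and NARS (-0.15) lost their calls.

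Leaving out 1 library at a time gave 10 to 12 genes higher and 16 to 20 lower in WERI, 9 and 26 each time in Y79, 0 to 3 higher and 12 to 21 lower for the difference between the lines, and 18 to 21 higher and 6 to 8 lower in DMSO. The 0 came without WERI DMSO replicate 2 or WERI THZ1 replicate 3, and 1 without WERI THZ1 replicate 1 or 2 or any single Y79 DMSO library. The cytosolic minus mitochondrial median ran from 0.10 to 0.19 in WERI, from -0.17 to 0.17 in Y79, from -0.067 to 0.051 for their difference and from -0.045 to 0.027 in DMSO; in DMSO it was 0.00046 under mitochondrially encoded mRNA scaling and -0.053 without the genes that share exon bases. The cause of these shifts was not tested.

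With the replicate number as a block, 30 of 31 calls were kept in WERI (MARS was lost), 35 of 35 in Y79, 27 of 27 in DMSO and 12 of 18 for the difference between the lines, where 0 genes were then higher. Same-numbered libraries did not deviate together (correlations from -0.12 to 0.03, beside -0.155 to 0.197 for differently numbered ones). This gave no sign that the numbers pair the samples, and with 3 libraries in a group it cannot exclude that they do. DESeq2 kept 28 of 31 calls in WERI and all others, and the fit of each line alone kept all calls of both lines. The WERI calls that DESeq2 lost were those of YARS, LARS2 and MARS2.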
